A study of Mus musculus with 9 samples.

Results

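7 genes for secreted growth and angiogenic factors were followed through cells of the mouse gut sorted for CD11b: Pgf (ENSMUSG00000004791), Vegfa (ENSMUSG00000023951), Pdgfb (ENSMUSG00000000489), Igf1 (ENSMUSG00000020053), Hbegf (ENSMUSG00000024486), Areg (ENSMUSG00000029378) and Pf4 (ENSMUSG00000029373). They were chosen by name as 7 of the 31053 annotated genes of the count tables, with earlier results of the same libraries known, and Pgf was chosen for its level in the small intestine and in germ-free (GF) mice. Pgf is therefore described there without a test. The values come from 9 single cell libraries of cells sorted for CD11b. They were made with the 10x Genomics chemistry, in which each RNA molecule is counted once by its unique molecular identifier (UMI). All mice were C57BL/6 males 7 to 8 weeks old, and all but those of 1 library were labelled wild type. The libraries were the colon of GF mice (2 libraries), the small intestine of mice that the labels call normal (2 libraries, with no word on their microbial status), the colon of mice given a mixture of ampicillin, vancomycin, neomycin and metronidazole in the drinking water (1 library, from here on antibiotics), the inflamed colon after dextran sulfate sodium (DSS) in the drinking water followed by plain water (1 library), the DSS colon of mice labelled Nlrc4 deficient (1 library) and the colon of specific pathogen free (SPF) mice (2 libraries). The labels name the lamina propria as the source. Of the conditions used here, the study's text describes the SPF colon alone. It names CD45+CD11b+ cells sorted from pooled mice, with the submucosa and muscularis externa as sources beside the lamina propria. Nothing says that the 2 libraries of a group came from separate mice, so that a p-value may measure technical spread only.

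As background, the 7 factors belong to 5 families. Placental growth factor (Pgf) and vascular endothelial growth factor A (Vegfa) act on endothelial cells: Pgf signals through the receptor Flt1, whereas Vegfa binds both Flt1 and Kdr, and neuropilins serve as co-receptors. The B chain of platelet-derived growth factor (Pdgfb) signals to pericytes, fibroblasts and smooth muscle through Pdgfrb and Pdgfra. Insulin-like growth factor 1 (Igf1) acts on Igf1r and is bound in tissue fluid by the Igfbp proteins. Heparin-binding EGF-like growth factor (Hbegf) and amphiregulin (Areg) are made as membrane precursors, are released by sheddases such as Adam17, and act on Egfr, which drives renewal of the intestinal epithelium. Platelet factor 4 (Pf4, also named CXCL4) is a chemokine known from platelet granules that binds heparin-like chains and limits the growth of vessels, and tissue macrophages are also known to transcribe it. Gut macrophages descend largely from blood monocytes, which enter the lamina propria and mature there, while some long-lived macrophages that carry Cd163 and Lyve1 lie near vessels and nerves.

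Of 37123 barcodes, 31759 passed the filter (at most 15% mitochondrial UMIs and at least 200 genes), with library totals of 13243317 to 64453601 UMIs and a median of 3342 to 12323 UMIs per kept cell. Cells were sorted into 19 classes by markers that include none of the 7 genes. Macrophage-like cells numbered 2801 (102 to 964 per library) and monocyte-like cells 2663 (8 to 1551 per library). Among the 10 genes with the highest fold in macrophage-like cells were 6 of the 6 macrophage markers (C1qa, C1qb, C1qc, Ms4a7, Mrc1 and Apoe), but only 2 of the 6 monocyte markers in monocyte-like cells. The count was 0 of 5 for epithelial-like cells and 1 of 5 for type 2 conventional dendritic-like cells. The classes were cut by these same markers, so a high fold of them is built in and does not check the classes. A further 1121 cells carried both marker sets and were held apart, 3315 cells matched several classes, and 4110 matched none. The gate has soft edges: 288 macrophage-like cells lay just inside it and 1374 cells just outside. The library labelled Nlrc4 deficient had 19.9 counts of Nlrc4 per 1000000 UMIs (CPM) over all kept cells, against 2.42 to 16.5 in the other 8 libraries. The sources used here do not say which stretch of the gene was removed, so these 3' tags do not settle the label, and the library is called by its label throughout.

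Levels are given as CPM, here the UMIs of a gene per 1000000 UMIs of a class in a library, and only for classes with at least 20 cells in that library unless stated. Intervals are exact 95% Poisson intervals and cover counting error only. Macrophage-like cells made up 8.82% of kept cells and gave 6.21% of their UMIs, and the 7 genes differed in how much of their UMIs came from them. Macrophage-like cells gave 86.0% of the Pf4 UMIs of all kept cells (3686 UMIs) and 42.8% of the Pgf UMIs (3480 UMIs). Their part was 26.7% for Pdgfb (863 UMIs) and 24.9% for Igf1 (495 UMIs), while fibroblast-like cells, which are few, gave 60.9% of the Igf1 UMIs. For Hbegf and Vegfa the part of macrophage-like cells was 9.96% and 8.63%, with 66.4% of Hbegf UMIs in epithelial-like cells and 24.5% of Vegfa UMIs in type 2 conventional dendritic (cDC2)-like cells. Epithelial-like cells also gave 46.0% of the Areg UMIs. The sort for CD45+CD11b+ cells that the study describes should remove epithelial cells and fibroblasts, so these shares count cells that were carried through it and do not describe the tissue. The kept cells also included 4093 B cell-like, 2567 plasma cell-like and 2271 T cell-like cells. Shares over all kept cells are therefore not shares over CD11b+ cells alone. Only for Pf4 did most UMIs come from macrophage-like cells.

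**Figure D1:**
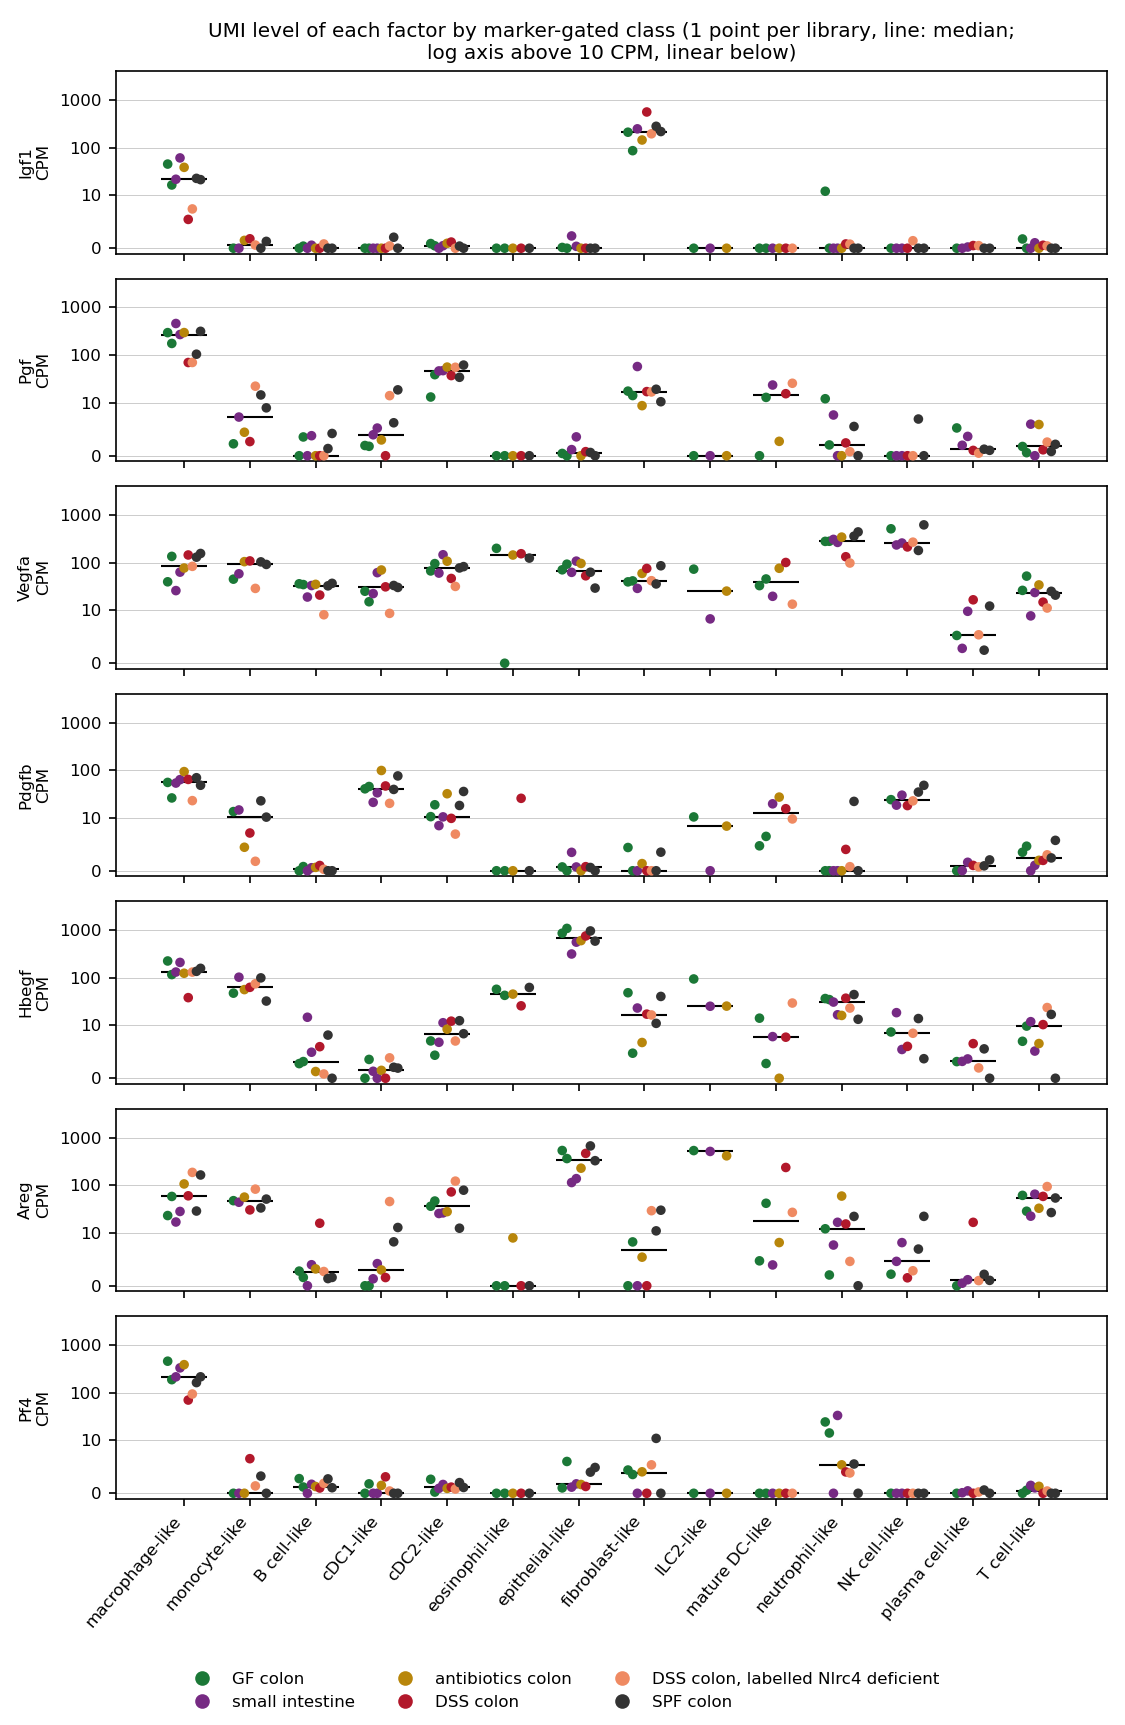
UMI level in CPM (log axis above 10 CPM, linear below) of the 7 factors by marker-gated class, 1 point per library with at least 20 cells of the class and a line at the median. Pgf and Pf4 were highest in macrophage-like cells in 9 of 9 libraries, Igf1 in fibroblast-like cells in 8, and Hbegf in epithelial-like cells in 8.

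Pgf, a VEGF family member that signals through Flt1, was highest in macrophage-like cells in each of the 9 libraries. Its level there was 297 CPM (265 to 331) and 176 CPM (151 to 204) in the GF colon, 462 CPM (429 to 495) and 271 CPM (256 to 286) in the small intestine, and 298 CPM (256 to 344) with antibiotics. The DSS colon had 70.1 CPM (57.2 to 85.0), the library labelled Nlrc4 deficient 70.2 CPM (61.0 to 80.4), and the SPF colon 105 CPM (90.9 to 120) and 316 CPM (280 to 355). Both GF libraries thus lay between the SPF libraries, and of the small intestine libraries 1 lay between them and 1 above. The SPF libraries lay further apart than the GF libraries did. The fitted log2 difference in Pgf was 0.21 for GF minus SPF colon and 0.72 for small intestine minus SPF colon, and these are given without a test because Pgf was chosen for these groups. Macrophage-like cells had a median of 271 CPM (70.1 to 462), against 46.6 CPM (13.2 to 61.9) in cDC2-like cells, the next class, and the ranges did not overlap. Monocyte-like cells had a median of 7.31 CPM over 7 libraries and B cell-like cells a median of 0 CPM.

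Vegfa, the main attractant of growing vessels, had its highest level outside macrophage-like cells in every library. Its level in macrophage-like cells was 39.6 and 135 CPM in the GF colon, 25.9 and 63.3 CPM in the small intestine, 77.2 CPM with antibiotics, 145 CPM with DSS, 83.7 CPM in the library labelled Nlrc4 deficient, and 130 and 156 CPM in the SPF colon. Both small intestine libraries lay below both SPF libraries, whereas the GF libraries lay far apart, 1 of them within the SPF range. Macrophage-like cells had a median of 83.7 CPM, neutrophil-like cells 281 CPM (98.3 to 442) and natural killer (NK)-like cells 258 CPM (180 to 621), with neutrophil-like cells highest in 5 libraries and NK-like cells in 4. In monocyte-like cells Vegfa ranged from 28.8 to 109 CPM over 7 libraries (median 91.8 CPM), so that these cells and macrophage-like cells overlapped.

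Pdgfb, the pericyte attractant, was shared between macrophage-like and type 1 conventional dendritic (cDC1)-like cells. It had 55.3 and 26.1 CPM in macrophage-like cells of the GF colon, 53.6 and 63.3 CPM in the small intestine, 93.3 CPM with antibiotics, 63.9 CPM with DSS, 22.9 CPM in the library labelled Nlrc4 deficient, and 69.4 and 48.2 CPM in the SPF colon. Macrophage-like cells were the highest class in 6 libraries and cDC1-like cells in 3, and the medians of 55.3 CPM (22.9 to 93.3) and 40.6 CPM (20.1 to 98.4) do not order them, since the ranges overlap. Monocyte-like cells had a median of 10.3 CPM over 7 libraries.

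Igf1, a survival and growth signal for many cell types, had a median of 21.7 CPM (5.44 to 60.8) in macrophage-like cells, against 214 CPM (86.4 to 560) in fibroblast-like cells, and the ranges did not overlap. Macrophage-like cells came second among the classes, and the first in the 1 library with too few fibroblast-like cells. By library, Igf1 in macrophage-like cells was 45.2 and 16.4 CPM in the GF colon (49 and 17 UMIs), 21.7 and 60.8 CPM in the small intestine (36 and 275 UMIs), 38.6 CPM with antibiotics (24 UMIs), 5.44 CPM with DSS (8 UMIs), 7.42 CPM in the library labelled Nlrc4 deficient (22 UMIs), and 22.6 and 21.3 CPM in the SPF colon (45 and 19 UMIs). The levels in both DSS libraries were the lowest of the 9. The 6 fibroblast markers summed to 4.82 to 55.7 CPM in macrophage-like cells (median 24.9 CPM), against 20011 to 45990 CPM in fibroblast-like cells. Monocyte-like cells had no Igf1 UMI in 5 of 9 libraries and at most 1.78 CPM in the others.

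Of the Egfr ligands, Hbegf had a median of 131 CPM (38.1 to 224) in macrophage-like cells, second to 675 CPM (314 to 1081) in epithelial-like cells. Hbegf in macrophage-like cells was 224 and 116 CPM in the GF colon, 131 and 209 CPM in the small intestine, 124 CPM with antibiotics, 38.1 CPM with DSS, 131 CPM in the library labelled Nlrc4 deficient, and 136 and 157 CPM in the SPF colon. The DSS library stood below the other 8, which differed among themselves by less than a factor of 2. The 5 epithelial markers summed to 7.85 to 128 CPM in macrophage-like cells (median 37.0 CPM), against 3746 to 12376 CPM in epithelial-like cells, and in macrophage-like cells with no such UMI the median Hbegf level was 133 CPM.

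Areg, the Egfr ligand linked to type 2 immunity and tissue repair, had a median of 58.0 CPM (16.9 to 186) in macrophage-like cells, against 511 CPM (413 to 532) in ILC2-like cells (group 2 innate lymphoid cells, with enough cells in 3 libraries) and 344 CPM (114 to 666) in epithelial-like cells. In macrophage-like cells Areg was 23.1 and 58.0 CPM in the GF colon, 16.9 and 28.1 CPM in the small intestine, 106 CPM with antibiotics, 59.9 CPM with DSS, 186 CPM in the library labelled Nlrc4 deficient, and 28.7 and 164 CPM in the SPF colon. These levels rest on few cells, which the Poisson intervals do not take into account. In the second SPF library 1 cell held 67.8% of the Areg UMIs (99 of 146), and without it the level was 54.2 CPM. In the second small intestine library 1 cell held 41.7% (53 of 127), and without it the level was 16.4 CPM. In the library labelled Nlrc4 deficient the UMIs were spread over 62 cells, the top cell held 15.5%, and the level without it was 158 CPM, the highest of the 9 on this count too.

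Pf4, the chemokine of platelet granules, was highest in macrophage-like cells in each of the 9 libraries. It had 458 and 188 CPM there in the GF colon, 215 and 332 CPM in the small intestine, 388 CPM with antibiotics, 70.1 CPM with DSS, 93.8 CPM in the library labelled Nlrc4 deficient, and 163 and 215 CPM in the SPF colon. Both DSS libraries lay below all others. The next class, neutrophil-like cells, had a median of 5.37 CPM (0 to 33.3) and monocyte-like cells a median of 0 CPM. The 6 platelet and megakaryocyte markers summed to 0 to 2.21 CPM in macrophage-like cells, 22 UMIs in all, so the defining platelet genes were at or near 0 in macrophage-like cells.

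**Figure D2:**
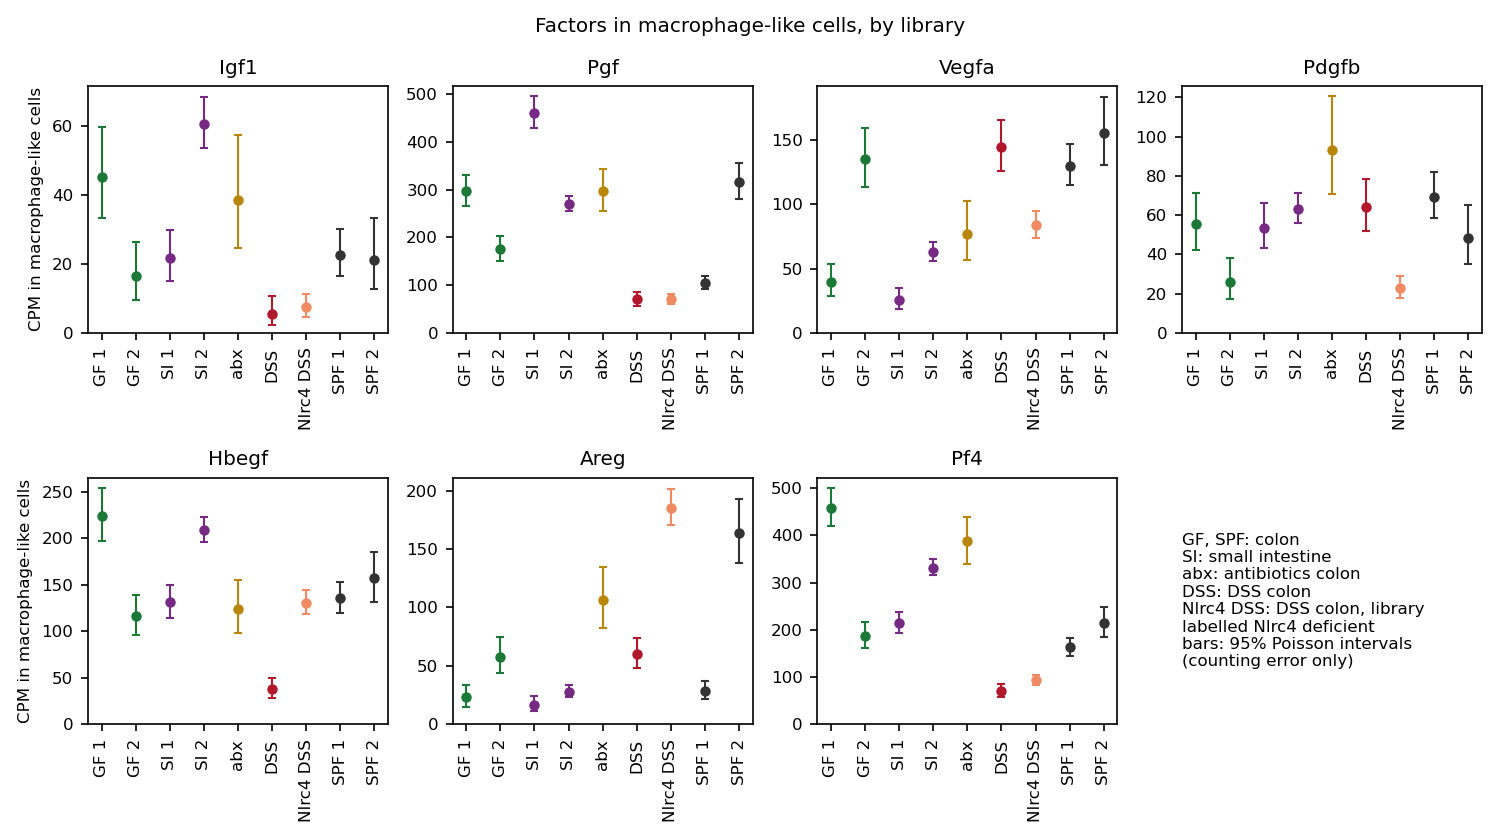
UMI level in CPM of each factor in macrophage-like cells, 1 point per library with its 95% Poisson interval (counting error only), with GF, small intestine, antibiotics and DSS libraries left of the SPF libraries. Pgf spans 105 to 316 CPM between the SPF libraries alone, and Igf1, Hbegf and Pf4 are lowest in the DSS library.

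Against the monocyte-like cells of each library, 4 factors were higher in macrophage-like cells throughout. This held for Igf1, Pgf, Pdgfb and Pf4 in 9 of 9 libraries, or 7 of the 7 that had at least 20 monocyte-like cells. Hbegf was higher in macrophage-like cells in 8 of 9 libraries (6 of 7), the exception being DSS with 38.1 CPM in macrophage-like and 62.7 CPM in monocyte-like cells. Vegfa and Areg were higher in 6 of 9 each (5 of 7). Both classes were cut from the same cells by expressed markers, so these counts are a description.

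**Figure D3:**
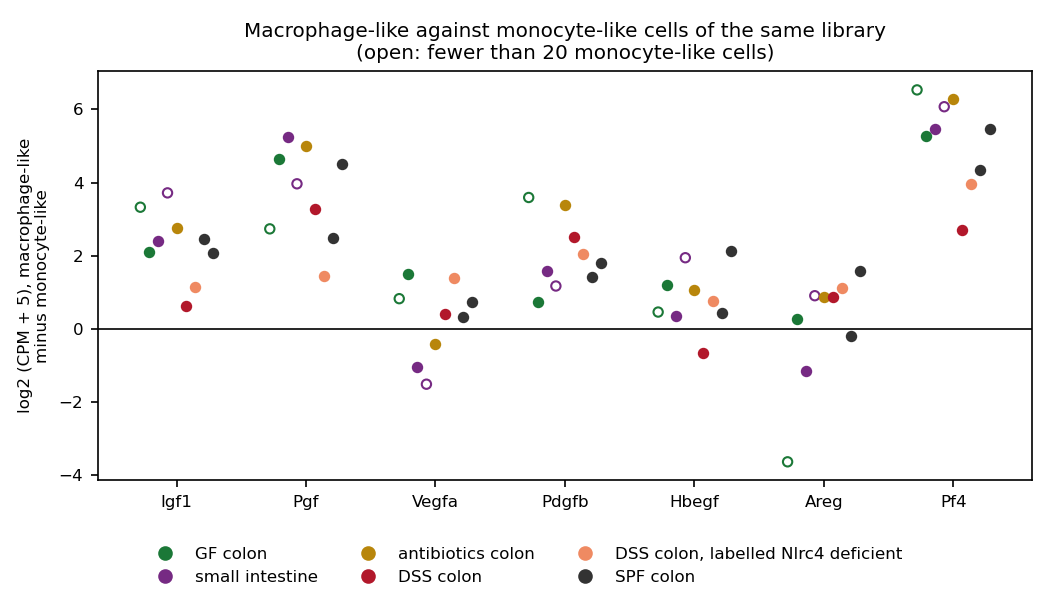
Difference in log2(CPM + 5) of each factor between macrophage-like cells and the monocyte-like cells found in the same library, 1 point per library, open where monocyte-like cells number fewer than 20. All 9 points lie above 0 for Igf1, Pgf, Pdgfb and Pf4, whereas 6 of 9 do for Vegfa and for Areg.

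The share of cells with a UMI was also compared with B cell-like cells, a class that should lack most of these factors. The median share over the 9 libraries was 43.1% (13.6 to 47.7%) in macrophage-like and 0.542% in B cell-like cells for Pf4, 26.4% (7.62 to 45.4%) and 0% for Pgf, 18.9% and 0.171% for Pdgfb, 9.09% and 0% for Igf1, 31.4% and 1.06% for Hbegf, 6.25% and 0.813% for Areg, and 23.8% and 7.31% for Vegfa. Macrophage-like cells were deeper, with library medians of 4047 to 8666 UMIs per cell against 2839 to 5066 UMIs in B cell-like cells. After each cell was thinned to 1000 UMIs (2557 macrophage-like cells, with 244 shallower ones left out), the median shares in macrophage-like and B cell-like cells were 17.1% and 0.143% for Pf4, 11.6% and 0% for Pgf, 5.71% and 0.0233% for Pdgfb, 2.98% and 0% for Igf1, 10.8% and 0.387% for Hbegf, 2.07% and 0.199% for Areg, and 7.02% and 2.63% for Vegfa. The median share was thus higher in macrophage-like cells at equal depth for each of the 7 factors, and as a ratio the classes were closest for Vegfa.

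The GF and small intestine groups were compared with the SPF colon over libraries, 2 against 2, with edgeR's quasi-likelihood test on summed UMIs. In macrophage-like cells none of the 6 tested factors passed an adjusted p of 0.05 in either comparison, where 0.00% of 8432 genes did so for GF against SPF and 0.00% for small intestine against SPF. At an unadjusted edgeR p below 0.05 there were 245 and 616 genes (2.91% and 7.31% of those tested), where a share of 0.05 would be reached with no difference at all. DESeq2 called 1 and 33 genes. On counts simulated for the GF comparison, 9% of genes changed 2-fold and 73% of those changed 4-fold were recovered, so that a change of 2-fold would mostly go undetected here. For GF minus SPF colon the log2 difference was 0.82 (SE 0.43) for Pf4, 0.55 (SE 0.58) for Igf1, 0.27 (SE 0.37) for Hbegf, -0.48 (SE 0.37) for Pdgfb, -0.64 (SE 0.55) for Vegfa and -1.17 (SE 0.74) for Areg, each with an edgeR adjusted p of 1.00. None of these passed the test, and the unadjusted edgeR p-values ran from 0.0832 for Pf4 to 0.478 for Hbegf. When 1 library was left out, 3 turned sign, with ranges of -2.01 to 0.62 for Areg, -0.34 to 1.08 for Igf1 and -0.26 to 0.65 for Hbegf.

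For small intestine minus SPF colon the differences furthest from 0 were those of Areg and Vegfa. Vegfa was lower by -1.70 on the log2 scale (SE 0.56, edgeR adjusted p = 0.553) and Areg by -2.10 (SE 0.74, edgeR adjusted p = 0.579). With no filter on low counts both passed, at edgeR adjusted p of 0.000104 for Vegfa and 2.81e-06 for Areg. That setting also called far more genes of all kinds than the main test did, with the counts given among the alternatives below. Leaving out the top Areg cell of each library, an alternative added after the data were seen, gave -1.49 for Areg (edgeR adjusted p = 0.576). The other log2 differences were 0.90 (SE 0.54) for Igf1, 0.47 (SE 0.42) for Pf4, 0.17 (SE 0.37) for Hbegf and -0.07 (SE 0.35) for Pdgfb, with edgeR adjusted p-values of 0.796 to 0.979. Igf1 in the small intestine turned on the second library, and without it the difference was -0.08.

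In monocyte-like cells only Vegfa, Hbegf and Areg had enough counts for the test. None of these 3 was called by edgeR in either comparison, against 0.00% of 4326 genes for GF and 0.0231% for small intestine over SPF colon. At an unadjusted edgeR p below 0.05 there were 198 and 193 genes (4.58% and 4.46% of those tested), and DESeq2 called 0 and 1. The log2 differences of GF minus SPF were -1.16 (SE 0.54) for Vegfa, 0.26 (SE 0.66) for Hbegf and 1.68 (SE 0.72) for Areg, each with an edgeR adjusted p of 1.00. The GF group rests on libraries with 8 and 51 monocyte-like cells, and without the second of them the Areg difference was 3.04 (edgeR adjusted p = 0.0318), carried by those 8 cells. For small intestine minus SPF the differences were 0.22 for Vegfa, 0.32 for Hbegf and -0.42 for Areg, each with an edgeR adjusted p of 0.987.

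Partners of the 7 factors were taken from lists of 58 genes along their pathways. Of each list, the genes with enough counts in macrophage-like cells were 4 of 10 for the IGF axis, 3 of 8 for the VEGF axis, 2 of 5 for the PDGF axis, 4 of 12 for the EGF axis, 1 of 3 for the CXCL4 axis, 6 of 10 other growth factors and 6 of 10 hypoxia response genes. None passed the edgeR test in either direction, for GF or for the small intestine, against the 0.00% of all genes given above. The list medians of the log2 difference from SPF colon ran from -2.06 (CXCL4 axis, 1 gene) to 0.61 (PDGF axis) for GF and from -0.72 to 0.44 for the small intestine, where the median of all genes was 0.00 and -0.01.

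The gene behind the lowest of these medians was Thbs1, thrombospondin 1, a matrix protein that inhibits angiogenesis and is, with Pf4, a product of platelet granules. Its level in macrophage-like cells was 158 and 163 CPM in the GF colon, 514 and 372 CPM in the small intestine, 499 CPM with antibiotics, 435 CPM with DSS, 1160 CPM in the library labelled Nlrc4 deficient, and 633 and 756 CPM in the SPF colon. Both GF libraries lay below the other 7. The difference of GF minus SPF in Thbs1 was -2.06 on the log2 scale (SE 0.30), with an adjusted p of 0.433 by edgeR and of 5.53e-07 by DESeq2, for which it was the 1 gene called. Macrophage-like cells were not its main source, with a median of 499 CPM against 2147 CPM in monocyte-like and 2797 CPM in eosinophil-like cells. Of the other growth factors, Gas6, the ligand of the TAM receptors, was at 1.46 (SE 0.48) for GF and 1.21 (SE 0.47) for small intestine minus SPF, and the Erbb ligand Nrg1 at -1.44 (SE 0.56) and -1.80 (SE 0.52), neither past the edgeR test.

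The receptors lay mostly outside macrophage-like cells. Igf1r had medians of 47.8 CPM in macrophage-like, 304 CPM in fibroblast-like and 323 CPM in neutrophil-like cells, and Igfbp4, which binds Igf1, 51.8 CPM in macrophage-like against 1606 CPM in fibroblast-like cells. Pdgfrb, the receptor of Pdgfb, had a median of 162 CPM in fibroblast-like cells. Of the co-receptors of Vegfa, Nrp2 had 189 CPM in macrophage-like and 270 CPM in fibroblast-like cells, and Nrp1 had 55.1 and 295 CPM in the same classes. Flt1 and Egfr, named after their values were seen, were near 0 in macrophage-like cells at 3.22 and 0.664 CPM, against 43.8 CPM of Flt1 in monocyte-like cells and 110 CPM of Egfr in fibroblast-like cells. The fitted log2 difference of Egfr in macrophage-like cells was 3.63 (SE 1.07) for GF minus SPF colon. It was -0.57 (SE 1.45) for small intestine minus SPF colon, and neither passed the edgeR test. Adam17, the sheddase of Hbegf and Areg precursors, was present in both myeloid classes, at a median of 176 CPM (106 to 233) in macrophage-like and 170 CPM in monocyte-like cells, with its partner Rhbdf2 at 85.6 and 107 CPM. Macrophage-like cells thus held transcripts of ligands and of their sheddase, with Flt1 and Egfr near 0 at the levels given above.

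The antibiotics, DSS and Nlrc4-labelled groups have 1 library each, so their differences have no replicate check and no test, and folds were taken on CPM + 5. On this scale a gene below 5 CPM in the reference cannot be lower by more than 2-fold. The shares over all genes can include such genes and are not matched to the levels of the factors. With antibiotics, macrophage-like cells had 2.02 times the Pf4 level of the SPF mean, and Pf4 was the only 1 of the 7 past a 2-fold difference, where 1.98% of 9903 genes were higher and 2.52% lower. Igf1 was at 1.62, Pdgfb at 1.54 and Vegfa at 0.555 of the SPF mean. Against each SPF library alone, the Pf4 level of 388 CPM was 2.34 times that of the first (163 CPM) and 1.78 times that of the second (215 CPM), so that the 2-fold mark was passed against 1 of them. Pgf and Areg passed it against the first SPF library alone, at 2.76 and 3.30, and were at 0.942 and 0.659 of the second.

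In the DSS colon, macrophage-like cells had less of 4 of the 7 factors than the SPF mean by more than 2-fold. Of 10288 genes, not matched for level, 1.80% were lower by as much and 2.18% higher. The folds were 0.285 for Hbegf, 0.348 for Pgf, 0.387 for Igf1 and 0.387 for Pf4. Hbegf, Igf1 and Pf4 were past 2-fold against each SPF library alone, whereas Pgf was at 0.685 of the first and 0.234 of the second, so its place in the count rests on the second SPF library. Vegfa and Pdgfb stood at 1.01 and 1.08 of the SPF mean. Areg stood at 0.641, but this depended on single cells. With the top Areg cell of each library left out, DSS and SPF colon had 40.3 and 39.2 CPM, a fold of 1.03. The cell left out held 33.0% of the Areg UMIs in the DSS library and 67.8% in the second SPF library. With all cells the Areg fold was 1.93 against the first SPF library alone and 0.385 against the second.

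In the library labelled Nlrc4 deficient, also from DSS colon, 3 factors were lower than the SPF mean by more than 2-fold, where 6.02% of 10450 genes were lower and 2.05% higher, at 0.349 for Pgf, 0.438 for Pdgfb and 0.461 for Igf1. Of these, Igf1 alone was past 2-fold against each SPF library, at 0.449 of the first and 0.472 of the second. Pgf was at 0.686 of the first and 0.234 of the second, and Pdgfb at 0.375 and 0.525. Pf4 was at 0.509 of the SPF mean, with 0.588 of the first and 0.449 of the second. Areg was at 1.88 of the SPF mean, and with the top Areg cell of each library left out it was past 2-fold, at 3.69 (158 CPM, against 39.2 CPM in SPF colon). Both comparisons rest on the same 2 SPF libraries and so are not independent of each other.

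Other markers differed between the same macrophage-like sums. The 6 macrophage markers summed to 11509 CPM with DSS and 9167 CPM in the library labelled Nlrc4 deficient, against 15014 and 15687 CPM in the SPF libraries. The 6 monocyte markers summed to 1447 CPM with DSS and 1598 CPM in the library labelled Nlrc4 deficient, against 1040 and 371 CPM in the SPF libraries, and the 5 markers of long-lived macrophages described below (Cd163, Lyve1, Folr2, Cbr2 and Cd209f) to 13.6 and 7.76 CPM, against 46.3 and 13.5 CPM. Macrophage-like cells of both DSS libraries thus had less of the macrophage markers and more of the monocyte markers. The part of these differences in the levels of the factors was not tested.

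Between the DSS libraries, the one labelled Nlrc4 deficient had 3.15 times the Hbegf and 2.94 times the Areg (3.60 with the top Areg cells left out) of the other in macrophage-like cells, and 0.405 times the Pdgfb, where 2.91% of 9894 genes were higher and 9.96% lower by more than 2-fold. The same pair in monocyte-like cells had folds of 3.56 for Pgf, 2.48 for Areg and 0.297 for Vegfa, where 1.77% of 11572 genes were higher and 5.25% lower. Areg was thus past 2-fold in both classes, and Hbegf in macrophage-like cells alone, with 74.5 CPM in monocyte-like cells of the library labelled Nlrc4 deficient and 62.7 CPM in those of the other. Against the SPF mean, monocyte-like cells were lower by more than 2-fold for Pdgfb with antibiotics (0.438, where 2.52% of 9175 genes were lower and 0.817% higher), for Pgf with DSS (0.456, where 1.22% of 10324 genes were lower and 1.91% higher), and for Vegfa and Pdgfb in the library labelled Nlrc4 deficient (0.329 and 0.315, where 3.59% of 11451 genes were lower and 1.58% higher). The folds of Vegfa and Pdgfb in the library labelled Nlrc4 deficient were past 2-fold against each SPF library alone, whereas against the second SPF library that of Pdgfb with antibiotics was 0.615 and that of Pgf with DSS 0.546. Monocyte-like cells numbered 530 with DSS and 1551 in the library labelled Nlrc4 deficient, against 208 and 178 in the SPF libraries. The part of this difference in cell numbers in the levels was not tested.

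Within macrophage-like cells some factors went with Pf4 and others did not. Cells with a Pf4 UMI had more Igf1 than cells without in 9 of 9 libraries, with a median difference of 1.31 in log2(CPM + 5) (0.68 to 2.20). In the DSS library this rests on 8 Igf1 UMIs. Igf1 was at 73.3 CPM in cells with a Pf4 UMI and 12.0 CPM in cells without in the first GF library, 82.7 and 37.3 CPM in the second small intestine library, 21.0 and 4.82 CPM in the library labelled Nlrc4 deficient, and 52.1 and 10.1 CPM in the first SPF library. Hbegf was also higher in cells with a Pf4 UMI in 7 of 9 libraries (median 0.36, -0.24 to 1.68). Areg went the other way, lower in cells with a Pf4 UMI in 8 of 9 libraries, with a median difference of -1.48 (-3.52 to 0.08). This count is weak, since 1 cell held 56.0% and 55.0% of these Areg UMIs in the GF libraries and 67.8% in the second SPF library. There the direction can turn on whether that cell had a Pf4 UMI, and the split was not repeated without it. In the library labelled Nlrc4 deficient, where Areg rests on the most cells, it was 21.0 CPM in cells with a Pf4 UMI and 217 CPM in cells without. Vegfa was lower in cells with a Pf4 UMI in 7 of 9 libraries (median -0.73), and in cells with a Vegfa UMI the Pf4 level was lower in 8 of the 8 libraries that had at least 20 such cells (median -0.91).

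Split the other way, by an Igf1 UMI or an Areg UMI, the cells gave the same directions: Pf4 was higher in cells with an Igf1 UMI in 4 of the 4 libraries with at least 20 such cells (median 1.77) and lower in cells with an Areg UMI in 3 of 3 (median -1.90).

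Pgf did not follow Igf1. Cells with a Pf4 UMI had more Pgf than cells without in 7 of 9 libraries (median 0.67, -0.60 to 2.76), with 500 and 104 CPM in the second SPF library but 239 and 366 CPM in the first GF library. Cells with a Pgf UMI had less Pf4 than cells without in 7 of 9 libraries (median -0.59), so that for this pair of genes the direction depended on which of them split the cells. In cells with a Pgf UMI the Igf1 level was lower than in cells without in 8 of 9 libraries (median -1.19), with 14.6 CPM in cells with and 69.3 CPM in cells without in the first GF library and 8.88 and 26.7 CPM in the first SPF library. The exception was the first small intestine library. This count is weak where Igf1 had few UMIs in all macrophage-like cells: 8 with DSS, 17 in the second GF library and 19 in the second SPF library. The library labelled Nlrc4 deficient had 22, with 0 CPM in cells with a Pgf UMI, and the antibiotics library had 24. Cells with a UMI of a gene were mostly deeper than cells without, with a median of 11241 UMIs in cells with a Pf4 UMI against 4641 in cells without in the second SPF library, but 6642 against 8574 in the second GF library, where Igf1 was higher with Pf4 all the same (34.7 against 7.27 CPM). The part of depth in these differences was not tested otherwise. For Pdgfb the cells did not split in a shared direction, with 4 of 9 libraries higher in cells with a Pf4 UMI.

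**Figure D4:**
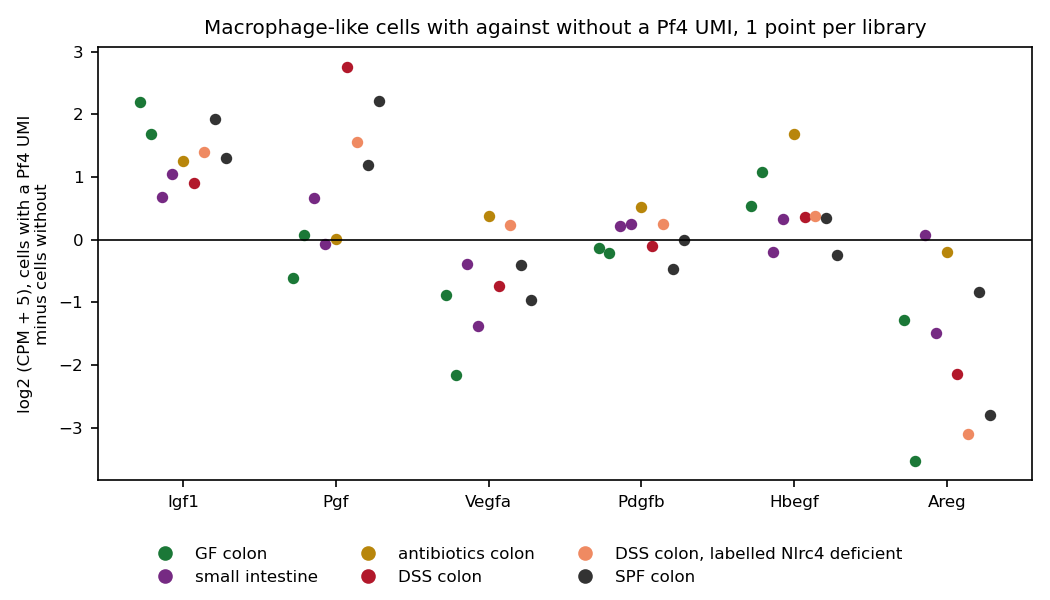
Difference in log2(CPM + 5) of 6 factors between macrophage-like cells with and without a Pf4 UMI, 1 point per library. Igf1 lies above 0 in 9 of 9 libraries and Areg, which rests on few cells in several of them, below 0 in 8 of 9.

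The markers of the long-lived macrophages also split the factors. Of the 5 markers Cd163, Lyve1, Folr2, Cbr2 and Cd209f, at least 2 were detected in 22 macrophage-like cells of the first GF library and in 75 of the second small intestine library, the libraries with 20 such cells or more. In these cells Pf4 was at 1843 CPM, against 264 CPM in the other macrophage-like cells of the GF library, and at 835 against 286 CPM in the small intestine library. Igf1 was at 180 against 26.3 CPM and at 176 against 50.2 CPM. Pgf was at 22.5 against 335 CPM and at 55.2 against 291 CPM, and Areg at 0 against 26.3 CPM and at 7.88 against 30.0 CPM, while Hbegf was close in both at 240 against 222 CPM and 250 against 205 CPM. Cells with these markers thus carried more Pf4 and Igf1 and less Pgf, within each of these 2 libraries, and with 2 libraries this is a description.

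The promoters of factors on either side of this split are shown, to set the sequence at an annotated start of Pf4 and Igf1 beside that of Pgf and Areg. They are RefSeq sequences of GRCm38.p6 from 250 bases before to 50 bases after the transcription start, in lower case with matches to 7 short motifs in capitals, searched on both strands. The motifs were the TATA box as TATAAA, the AP-1 site as TGACTCA, the cAMP response element (CRE) as TGACGTCA, the core of the hypoxia response element as ACGTG, the ETS site of the PU.1 type as GAGGAA, the GC box as GGGCGG and the GATA site as AGATAA. Promoters of 5 of the 7 factors were taken, 7 promoters in all. No entry was found for Pdgfb, and that of Hbegf is not reported here. The Pf4 promoter lies at chr5:90772185-90772484 (+), that of Igf1 at chr10:87860861-87861160 (+), the first of Pgf at chr12:85177264-85177563 (-) and that of Areg at chr5:91139349-91139648 (+). The Igf1 and Pgf windows lie wholly within the gene bounds given below, so they mark internal starts and not the outermost annotated ones.
Pf4: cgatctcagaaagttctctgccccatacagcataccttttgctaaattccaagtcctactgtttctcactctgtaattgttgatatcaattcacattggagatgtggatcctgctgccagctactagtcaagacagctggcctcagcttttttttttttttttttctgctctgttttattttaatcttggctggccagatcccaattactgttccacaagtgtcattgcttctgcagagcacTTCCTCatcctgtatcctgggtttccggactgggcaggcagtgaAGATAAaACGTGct
Igf1: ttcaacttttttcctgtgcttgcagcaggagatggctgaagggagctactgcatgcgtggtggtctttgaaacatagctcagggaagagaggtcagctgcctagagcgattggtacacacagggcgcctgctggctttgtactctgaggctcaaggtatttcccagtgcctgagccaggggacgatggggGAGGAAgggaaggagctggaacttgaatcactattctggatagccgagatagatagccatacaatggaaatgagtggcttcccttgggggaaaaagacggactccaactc
Pgf: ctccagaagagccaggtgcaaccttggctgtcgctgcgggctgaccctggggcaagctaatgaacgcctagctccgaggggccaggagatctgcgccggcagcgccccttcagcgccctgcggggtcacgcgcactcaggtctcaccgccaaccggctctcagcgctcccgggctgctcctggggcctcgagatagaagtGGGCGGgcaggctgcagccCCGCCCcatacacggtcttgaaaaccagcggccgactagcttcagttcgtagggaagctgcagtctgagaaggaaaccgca
Areg: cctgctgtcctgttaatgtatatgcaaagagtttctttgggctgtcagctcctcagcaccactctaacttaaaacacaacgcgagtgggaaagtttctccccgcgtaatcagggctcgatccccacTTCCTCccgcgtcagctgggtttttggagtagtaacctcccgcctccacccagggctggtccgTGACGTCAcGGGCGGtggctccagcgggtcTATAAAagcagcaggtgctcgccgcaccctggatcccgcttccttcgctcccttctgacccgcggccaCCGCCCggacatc
The Areg promoter holds a TATA box at -31 from the start and the full CRE at -61, which 13.6% and 1.79% of 32851 mouse promoters of this length hold, and GGGCGG, which 35.7% hold. The Pf4 and Igf1 promoters each hold a GAGGAA match, at -8 on the minus strand in Pf4 and at -60 in Igf1, as do 28.3% of all promoters, Pf4 also holds AGATAA and ACGTG after its start, as do 11.2% and 19.6%, and the Areg promoter holds 1 as well at -124. The first Pgf promoter holds GGGCGG at -50 and -31, with a GC content of 66.0% against 43.3% in Pf4. The second Pgf promoter, not shown, has a GC content of 64.0% and no match to any of the 7 motifs. No AP-1 match lies in the 4 windows shown. The matches describe the letters only, and no binding was measured.

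In the genome Pf4 (chr5:90772435-90773383, plus strand) and Areg (chr5:91139599-91148432, plus strand) both lie on chromosome 5, and Igf1 (chr10:87858265-87937042, plus), Pgf (chr12:85166635-85177790, minus), Pdgfb (chr15:79995874-80014977, minus) and Vegfa (chr17:46016993-46032369, minus) lie on others (GRCm38, GENCODE vM21, all protein coding). The position of Hbegf is not reported here.

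Over 107 sums of a library and a class, which share libraries and are thus not independent, the genes with the pattern most like each factor were sought by Pearson's r of log2(CPM + 5) among 14873 genes. Pf4 was most like Lilra5 (r = 0.92), the complement gene C1qc (r = 0.92) and Npl (r = 0.91), and Pgf most like the endocytic adaptor Dab2 (r = 0.81), the mannose receptor Mrc1 (r = 0.80) and Nxpe5 (r = 0.80). C1qc and Mrc1 are among the markers of the macrophage gate. Igf1 followed the stromal genes Col14a1 (r = 0.97) and Mmp2 (r = 0.95) and B3galnt1 (r = 0.93), Hbegf followed Gdpd1 (r = 0.81), Akr1c13 (r = 0.78) and Ms4a8a (r = 0.77), and Areg followed Espn (r = 0.71), Rnf128 (r = 0.70) and Galnt3 (r = 0.67). The nearest to Pdgfb were Etv3 (r = 0.71), Olfm1 (r = 0.67) and Klrb1b (r = 0.66), and to Vegfa Ptpn12 (r = 0.70), Maff (r = 0.64) and Pxn (r = 0.64). Among the 7 themselves the highest values were 0.72 between Pgf and Pf4, 0.60 between Hbegf and Areg, and 0.51 between Pgf and Pdgfb.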

How the data were processed

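The 7 factors, the gene lists and the rule for named genes were chosen with earlier results of these data known. The deposited values are raw UMI counts per gene and cell, which the authors made with Cell Ranger (the matrix headers give software version 3.0.2), and the submitters' processing notes name STAR 2.5.1b and mm10. Whole transcripts are not covered, since reads lie near the 3' end, and free RNA was not removed. All columns belong to samples of the series.

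Kept cells (at most 15% mitochondrial UMIs, at least 200 genes) were put into 1 of 19 classes by 98 marker genes: the class with the largest share of its markers detected, if that share was at least 0.4 with a lead of 0.2 or more over the runner-up. No doublet caller was run, and cells matching several classes were left out. The UMIs of all cells of a class in a library were added up, for classes with at least 20 cells where levels are given. Libraries shared at most 0.738% of their cell barcodes (20). The study's methods test single cells with a Poisson model, which was not used because cells are not replicates.

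GF and small intestine were compared with SPF colon in 1 fit over 6 libraries with 3 residual degrees of freedom (edgeR 4.0.16 in R 4.3.3, filterByExpr, TMM, quasi-likelihood test, Benjamini-Hochberg adjustment over all tested genes, false discovery rate 0.05), after the scripts were tested on simulated data. DESeq2 1.42.0, other gates, stricter cell filters, no filter on low counts, the replicate number as a term and each library left out were the alternatives. Added after the data were seen were the macrophage-like cells with no epithelial marker, the top Areg cell of each library left out, and ratios against each SPF library alone. Groups with 1 library have no test, and their folds use a pseudocount of 5 CPM and genes with at least 10 UMIs. Named were the 7 factors, of each pathway list the genes past the threshold and otherwise up to 3 with the highest level in macrophage-like cells, and for each factor the 3 genes of most similar pattern, and genes outside this rule are marked as chosen after their values were seen. Python 3.11.15, NumPy 2.4.6, pandas 2.3.3, SciPy 1.17.1 and Matplotlib 3.10.9 were used.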

Additional observations from a re-analysis of the deposited data

How the results depend on the processing

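Of 168 alternatives to the log2 differences of the factors that left out no library, 160 kept the direction and the side of the threshold, 6 reversed and 2 passed the threshold, and of 108 that left out 1 library, 94 kept both, 13 reversed and 1 passed. No filter on low counts gave 53 and 235 genes called in macrophage-like cells (GF and small intestine, each minus SPF) and 24 and 12 in monocyte-like cells, and made Vegfa (-1.69, edgeR adjusted p = 0.000104) and Areg (-2.08, edgeR adjusted p = 2.81e-06) pass in macrophage-like cells of the small intestine. DESeq2 called 1 and 33 genes in macrophage-like cells. The gate on the share of UMIs called 1 gene for small intestine in macrophage-like cells and 9 and 8 in monocyte-like cells, and turned Pdgfb in the small intestine to 0.21 in macrophage-like cells and Vegfa to -0.23 in monocyte-like cells. The lead of 0.4 called 20 and 11 genes in monocyte-like cells, and turned Hbegf to -0.036 in macrophage-like cells of the small intestine, Hbegf to -0.45 in monocyte-like cells of GF colon and Vegfa to -0.55 in those of the small intestine. The share of 0.6 called 0 genes for small intestine in monocyte-like cells and turned Hbegf to -0.27 for GF. The first GF library had no monocyte-like cell under the UMI share gate and the lead of 0.4 and was dropped there. The causes were not tested.

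With each library left out in turn, 0 to 1 genes were called for GF and 0 to 10 for small intestine in macrophage-like cells, and 4 to 44 and 0 to 46 in monocyte-like cells. In macrophage-like cells the differences of GF minus SPF then ran from -0.34 to 1.08 for Igf1, -0.26 to 0.65 for Hbegf and -2.01 to 0.62 for Areg, and those of small intestine minus SPF from -0.081 to 1.42 for Igf1, -0.22 to 0.46 for Hbegf and -0.24 to 0.17 for Pdgfb, whereas Vegfa (-2.53 to -1.23) and Areg (-2.94 to -0.31) kept their sign. In monocyte-like cells they ran from -0.34 to 1.34 for Hbegf and up to 3.04 for Areg (GF), and from -0.73 to 0.82 for Vegfa, -0.48 to 1.30 for Hbegf and -1.87 to 0.049 for Areg (small intestine). With the replicate block, 0 and 0 genes were called in macrophage-like cells and 3 and 1 in monocyte-like cells. Same-numbered libraries correlated by -0.09 to 0.28 in their deviations, so the numbers were not taken to pair them, and the block changed no call of a factor. The 42 alternatives to the median levels moved by less than 1 SD over the 9 libraries. This SD spans all groups and is a wide bound. Within it, the median Areg level fell from 58.0 CPM to 25.2 CPM with the lead of 0.4. Without the top Areg cells it fell to 26.5 CPM. Shares of cells with a UMI fell by more than 1 SD with thinning for 6 of 7 factors. The ratios of groups with 1 library were also taken against each SPF library alone (84 ratios, none of the called ones turning sign) and without the top Areg cells (28 ratios, 7 of which, all against DSS, have no replicate spread to be set against). The 8 to 51 monocyte-like cells of the GF and small intestine libraries limit what those comparisons can show.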
